A study of Rattus norvegicus with 6 samples.

Results

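The genes described here are Nppa, Nppb and Nppc, which encode the natriuretic peptides, Npr1, Npr2 and Npr3, which encode their receptors, and Corin, which encodes a protease that processes the atrial peptide. They were chosen by symbol, and each of the 7 had 1 entry among the 22427 genes that any of 4 deposited lists named. Each list names the genes at which 1 chromatin immunoprecipitation library had a peak of H3K27me3, the trimethylation of histone H3 at lysine 27 by which Polycomb repressive complexes mark chromatin. The cells were primary cardiomyocytes of newborn Sprague Dawley rats. In the treated group (α-KG 1 and α-KG 2), cells received 5 mM α-ketoglutarate, a tricarboxylic acid cycle metabolite that histone demethylases use as a cosubstrate, over 24 h. In the control group (control 1 and control 2), cells received phosphate-buffered saline for the same time. Both groups were cultured in DMEM with serum. The labels do not give the purity of the cultures, the number of animals, or whether the replicates were separate cultures, so any p-value measures only the spread between these libraries.

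Natriuretic peptides are hormones that lower blood volume and pressure. The atrial and B-type peptides, from Nppa and Nppb, are made by heart muscle cells and act through the receptor guanylyl cyclase of Npr1, which makes cyclic GMP. The C-type peptide, from Nppc, acts mainly through the related cyclase of Npr2, and the receptor of Npr3, which has no cyclase domain, removes all of these peptides from the circulation. Nppa and Nppb are active in the fetal ventricle and rise again in stressed adult heart, which makes both of them common markers of hypertrophy.

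A gene is only listed or not listed. The values hold no peak height, position or read count, so the depth behind a listing is unknown. An unlisted gene is not shown to be free of the mark, since a weak peak can be missed. A listing does not show that the gene was silent. The α-KG 1 and α-KG 2 lists held 18120 and 19181 genes, against 17245 and 18442 in control 1 and control 2. The group means were 18650.5 ± 750 genes for α-KG and 17843.5 ± 846 for control (SD, n = 2 each), with p = 0.667 by an exact two-sided permutation test, where 0.333 is the smallest p that 2 against 2 libraries allow.

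Promoter windows of the 3 peptide genes are printed first, because Nppa and Nppb are neighbours that differed in listing while Nppc lies on another chromosome. They are the 250 bases before the RefSeq start in assembly GRCr8. The Nppa window is chr5:163711934-163712183 on the plus strand, the Nppb window is chr5:163699758-163700007 on the plus strand, and the Nppc window is chr9:94772187-94772436 on the minus strand. Each is written 5′ to 3′, with every CpG dinucleotide in capitals, since Polycomb marks are known to gather at CpG-rich promoters in mammals. The positions of the peaks are not given in the lists, so these windows are not peak sequences.
Nppa: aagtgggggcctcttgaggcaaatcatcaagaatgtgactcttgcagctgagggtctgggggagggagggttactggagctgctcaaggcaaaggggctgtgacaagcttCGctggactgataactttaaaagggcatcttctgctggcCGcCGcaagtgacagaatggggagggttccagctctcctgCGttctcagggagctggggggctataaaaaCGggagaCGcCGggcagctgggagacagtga
Nppb: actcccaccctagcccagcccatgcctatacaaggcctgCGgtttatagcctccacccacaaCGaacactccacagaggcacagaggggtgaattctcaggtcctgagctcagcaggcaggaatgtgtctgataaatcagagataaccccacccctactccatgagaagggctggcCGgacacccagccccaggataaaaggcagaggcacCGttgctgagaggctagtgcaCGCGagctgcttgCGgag
Nppc: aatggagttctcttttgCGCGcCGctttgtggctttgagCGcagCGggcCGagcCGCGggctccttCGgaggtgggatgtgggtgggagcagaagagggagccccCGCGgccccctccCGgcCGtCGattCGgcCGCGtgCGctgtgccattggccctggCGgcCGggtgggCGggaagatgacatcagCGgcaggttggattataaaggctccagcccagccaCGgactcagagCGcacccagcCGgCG
The Nppa and Nppb windows hold 7 CpG each and the Nppc window holds 26.

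Of the peptide genes, Nppb and Nppc were listed in every library and Nppa in 1 of them. Nppa (ENSRNOG00000008176) was not listed in α-KG 1, α-KG 2 or control 1 and was listed in control 2. The groups therefore overlapped, since control 1 was like both treated libraries. Nppa was listed in 0 of 2 α-KG libraries and 1 of 2 control libraries, with p = 1.0 by an exact two-sided permutation test. A gene in 1 library gives a difference of the same size however the libraries are split between the groups. This p could therefore take no other value, and no conclusion is drawn from it. Nppb (ENSRNOG00000008141) was listed in α-KG 1, α-KG 2, control 1 and control 2. Nppc (ENSRNOG00000018854) was likewise listed in all 4. Neither of these genes separated the treatments, and a change in the height or width of their peaks could not be measured.

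Both the longest list, α-KG 2, and the shorter lists of α-KG 1 and control 1 lacked Nppa, while control 2, the second longest, had it. Of all 22427 genes, 509 (2.27%) were listed in control 2 alone as Nppa was. A further 455 were in α-KG 1 alone, 1561 in α-KG 2 alone and 388 in control 1 alone, so 2913 genes (13.0%) rested on a single library.

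The receptor genes were on every list. Npr1 (ENSRNOG00000014684), the cyclase for the atrial and B-type peptides, was listed in both α-KG and both control libraries. Npr2 (ENSRNOG00000015991), the cyclase for the C-type peptide, was listed in the same 4 libraries, and so was Npr3 (ENSRNOG00000019184), the clearance receptor. Corin (ENSRNOG00000002302), the membrane protease that cuts the atrial propeptide, was also listed in all 4. Listing in every library was common, since 62.8% of all genes in any library had it, and 6 of the 7 genes here did.

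No gene of the family met the pattern of loss or gain. Loss means a gene that both controls list and that is missing from α-KG 1 and α-KG 2, and 0 of the 6 family members in both controls showed it, against 3.22% of the 16005 genes in both controls. Gain is the reverse, and 0 of the 6 members in both α-KG libraries showed it, against 4.48% of 16287 genes. With 6 genes, a count of 0 cannot be told apart from these background shares. The α-KG 1 and α-KG 2 lists each held 6 of the 7 members, against 6 in control 1 and 7 in control 2, a mean of 6.0 for α-KG and 6.5 for control. The whole difference is Nppa in control 2, and without that library it is 0. Without control 1, Nppa would count as lost, as would 5.56% of the genes in control 2.

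**Figure D1:**
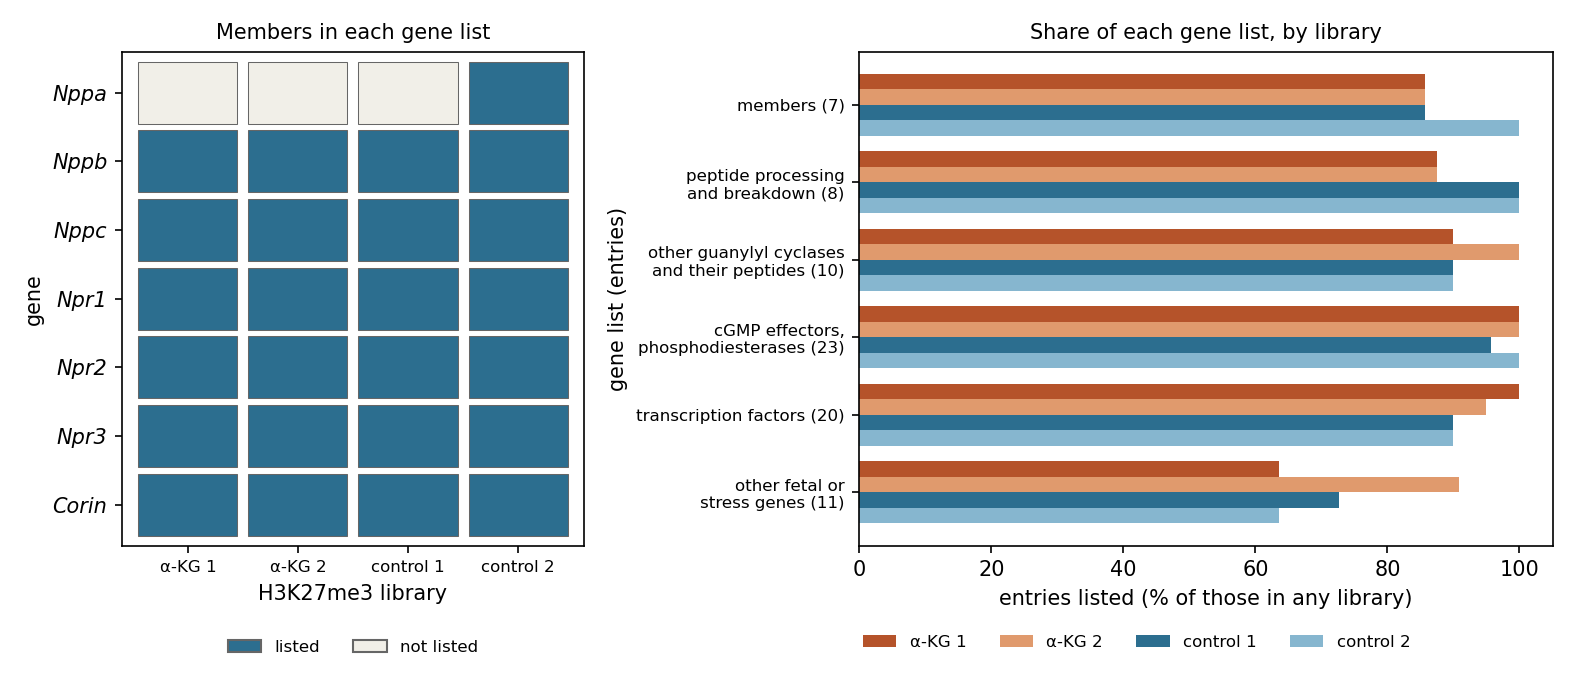
Left, listing of the 7 genes (rows) in each H3K27me3 library (columns), where a dark tile is a listed gene. Right, share of the entries of each gene list that each library named, in percent of the entries in any library, with the number of entries in brackets. Nppa is dark in control 2 alone and the other 6 genes are dark in every column. The fetal and stress genes have the lowest share in every library except α-KG 2. They have 7 of 11 entries in α-KG 1 and in control 2, and 10 of 11 in α-KG 2.

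The 3 peptide genes are the only entries that carry the natriuretic peptide domain in the files' annotation, so the family has no further listed member. The receptor annotation is shared by Npr1, Npr2, Npr3 and 1 further gene, the receptor guanylyl cyclase gene Gucy2g, which was listed in all 4 libraries. The catalytic domain that makes cyclic nucleotides, shared by guanylyl and adenylyl cyclases, occurs in Npr1, Npr2 and 19 other entries. Of these 19, 16 (84.2%) were in all 4 libraries, against 62.8% of all genes in any library. The 3 exceptions were Gucy2e, a retinal guanylyl cyclase gene, in α-KG 2 alone, Adcy4, an adenylyl cyclase gene, in α-KG 1 and α-KG 2 and no control library, and Adcy10, the soluble adenylyl cyclase gene, in every library except α-KG 2. Adcy4 was the 1 gained gene of these 19, where 3.25% of all genes in any library were gained. Npr3 and the receptor cyclases also share an extracellular ligand-binding domain with 119 other entries. Of these, 78 (65.5%, near the 62.8% of all genes) were in all 4. Corin combines a trypsin-like protease domain with frizzled domains, and these families differed. All 19 other entries with a frizzled domain, the Wnt-binding module of receptors such as Fzd1 and of secreted antagonists such as Sfrp1, were in all 4 libraries, against 53 of 136 other entries (39.0%) with the S1 peptidase domain. The frizzled entries include both Fzd8 and FZD8, which are separate entries. Genes of 1 family can share sequence, and no test was made of these shares.

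Genes that act before and after the receptors were mostly listed in every library. Of the genes for peptide processing and breakdown, 7 of 8 entries (87.5%) were in all 4 libraries, against 62.8% of all genes in any library. They include Furin, Pcsk5 and Pcsk6, proprotein convertases, Mme, which encodes neprilysin, and Ide, which encodes insulin-degrading enzyme, both of which break down natriuretic peptides. Ostn, which encodes osteocrin, another ligand of the clearance receptor, was also in all 4. Mep1a, which encodes the α subunit of the protease meprin, was in neither α-KG library and in both controls, the pattern of loss. It was 1 lost gene of the 8 entries in both controls, where 3.22% of all genes in both controls were lost. A count of 1 in 8 is too small to be told apart from that share. Mep1b had no entry in the lists used here.

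Among other guanylyl cyclases and their peptides, 9 of 10 entries were in all 4 libraries. These were the soluble cyclase subunit genes Gucy1a1, Gucy1a2, Gucy1b1 and Gucy1b2, of which Gucy1a1 and Gucy1b1 carry their older symbols in the files, the receptor genes Gucy2c, Gucy2d, Gucy2f and Gucy2g, and the uroguanylin gene Guca2b. The exception was Gucy2e. Of the genes for cyclic GMP effectors and phosphodiesterases, 22 of 23 entries were in all 4. Examples are Prkg1 and Prkg2, the cyclic GMP-dependent protein kinases, Cnga2 and Cnga3, subunits of cyclic nucleotide-gated channels, Pde5a, the phosphodiesterase that sildenafil inhibits, and Pln, the phospholamban gene, whose product is a kinase substrate. Pde9a, a cyclic GMP phosphodiesterase gene, was in both α-KG libraries and in control 2 but not in control 1. In these 3 lists together, 38 of 41 entries (92.7%) were in all 4 libraries, against 62.8% of all genes in any library. They held 1 lost of 39 and 0 gained of 39, against 3.22% and 4.48% of all genes, so the count of lost genes is near the background. Guca2a, Cnga1, Cnga4 and Pde11a had no entry in the lists used here.

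Most genes for transcriptional regulators of cardiac genes, chosen for a part in the control of Nppa or Nppb, were also listed throughout. Of 20 entries, 17 (85.0%, against 62.8% of all genes) were in all 4 libraries, among them Gata4, Gata6, Nkx2-5 and Tbx5, activators of Nppa in cardiac cells, the T-box repressor genes Tbx2 and Tbx3, and Rest, which encodes a repressor of neuronal and fetal cardiac genes. Mef2c, which encodes a muscle activator, was in α-KG 1 and α-KG 2 and no control library, and was the 1 gained gene of 19 entries in both α-KG libraries, where 4.48% of all genes were gained. None of the 17 entries in both controls was lost. Hand2, a ventricular factor gene, was in every library except control 1, and Hopx, which encodes a homeodomain protein that does not bind DNA, was in α-KG 1 and control 1.

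Of 11 entries for other fetal or stress genes of the heart, 6 (54.5%, near the 62.8% of all genes) were in all 4 libraries, namely Actc1, Ankrd1, Sln, Xirp1, Xirp2 and Atp2a2. The α-KG 1 and α-KG 2 lists held 7 and 10 of the 11, against 8 and 7 in control 1 and control 2. Myh7, the slow myosin heavy chain gene, Rcan1, a calcineurin regulator gene, and Myl7, the atrial light chain gene, were in α-KG 2 alone. Acta1, the skeletal actin gene, was in every library except α-KG 1, and Myl4, another atrial light chain gene, was in α-KG 1 and control 1. None of the 7 entries in both controls was lost and none of the 6 in both α-KG libraries was gained, counts too small to be told apart from the background of 3.22% and 4.48%. No gene of the 5 lists described above had the pattern of Nppa. The pattern of the other 6 members, listed in all 4, is shared by 14077 genes, starting in list order with Furin, Pcsk5, Pcsk6, Mme and Ide.

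A gene list for a repressive mark cannot check the cell type, since a listing is not a level of RNA. Of the cardiomyocyte markers, Tnnt2, Actn2 and Pln were in all 4 libraries, Tnni3 was in α-KG 1 alone, and Myh6 had no entry. Ryr2 was in neither α-KG library and both controls, the pattern of loss. It was 1 lost gene of the 4 entries in both controls, where 3.22% of all genes in both controls were lost. A count of 1 in 4 is too small to be told apart from that share. Of the markers of other cells, 5 of 6 entries for fibroblasts and 4 of 6 for endothelium were in all 4 libraries. So were 1 of 3 for smooth muscle and pericytes and 2 of 2 for immune cells. Among all genes in any library the share was 62.8%. The part of other cells in the listings of the natriuretic genes was not tested.

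The genes lie in surroundings that were listed to different extents. Gene order was that of the protein-coding genes in the RefSeq annotation of assembly GRCr8, and it may differ in places from the build named for the files. Of these 23154 genes, 69.7% had a matched entry. Of the entries with a symbol, 85.6% matched a RefSeq gene of any type by name. Nppb lies directly before Nppa, and the chloride transporter gene Clcn6 follows. Nppb and Clcn6 were listed in all 4 libraries, so Nppa, in control 2 alone, lay between genes that every library listed. Genome-wide, 5522 protein-coding genes lie between neighbours that are both in all 4 libraries. Of these, 59.3% were themselves in all 4, 6.57% were in 1 library, 0.978% were in control 2 alone as Nppa was, and 19.9% had no matched entry, which includes renamed genes.

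Up to 5 genes on each side of a member were described, and the stretch around Nppa and Nppb ends at Clcn6. Of the 6 neighbours of Nppa, 5 were in all 4 libraries. Nppc was the opposite case, in all 4 libraries itself while 1 of its 8 neighbours with an entry was. Its nearest neighbours were Cops7b, a signalosome subunit gene, in α-KG 1 alone, and Dis3l2, an exoribonuclease gene, in control 1 alone. Npr1 and Npr2 each had 3 of 7 such neighbours in all 4 libraries. Spag8, a sperm antigen gene beside Npr2, was in control 1 alone. On its other side Rps20l1, under an older symbol in the files, was in every library except α-KG 2. Npr1 was followed by Ilf2, which was in every library except control 1, and Ints3, the nearest gene before it with an entry, was in neither α-KG library and both controls.

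Npr3 stood in a stretch listed almost throughout, with 8 of its 10 neighbours in all 4 libraries, among them Tars1 and Sub1 on either side. Corin had 5 of 7, with Nfxl1 directly before it in all 4 and the γ-aminobutyric acid receptor subunit genes Gabrb1 and Gabra4 beyond Commd8. Counting each neighbour once and leaving out the members themselves, 24 of 45 neighbours with an entry (53.3%) were in all 4. The share of all genes in any library was 62.8%. Of the 45 neighbours, 2 were lost (Zfp933, near Nppb, and Ints3) and 1 was gained (Tmem8b, near Npr2). Among all genes in any library, 2.30% were lost and 3.25% gained, and counts this small cannot be told apart from those shares. A gene with several entries was counted as listed where any entry was. Neighbouring genes can share a peak, and how peaks were assigned to genes is not given in the sources used here.

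**Figure D2:**
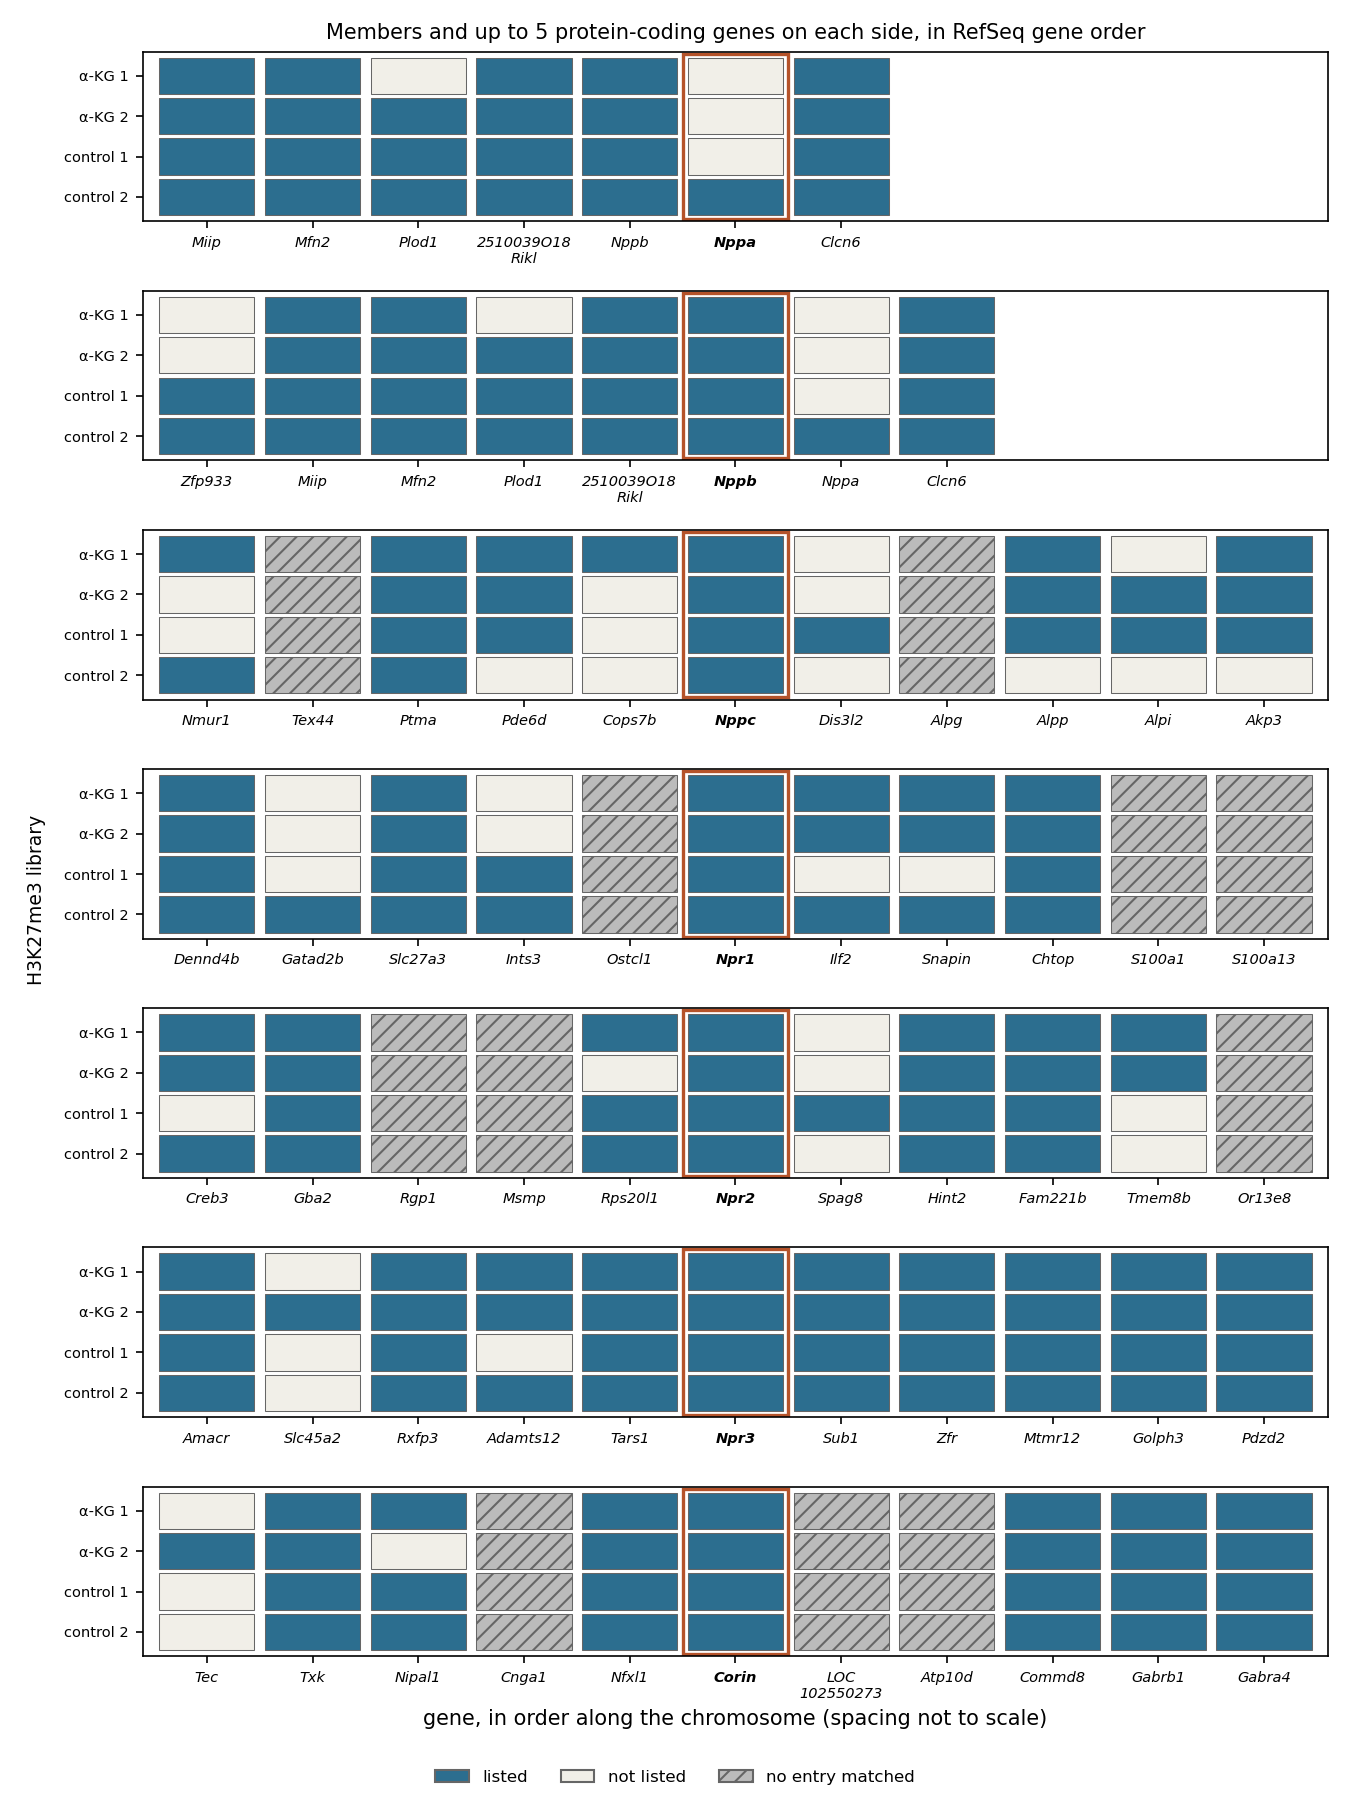
Listing of each of the 7 genes (outlined, centre) and of up to 5 protein-coding genes on each side, in RefSeq gene order, in each H3K27me3 library (rows). Dark tiles are listed, pale tiles are not listed and hatched tiles are genes with no matched entry. Nppa is pale in 3 rows between the fully dark Nppb and Clcn6, and Nppc is fully dark between genes with 1 dark tile each.

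CpG content was similar at the Nppa and Nppb promoters, and its relation to their listing was not tested. It was measured as the number of CpG dinucleotides over the number that the C and G content would give by chance, from 250 bases before to 50 bases after the start. The ratio was 0.410 for Nppa and 0.355 for Nppb, with 9 CpG in each window, and both lay in quartile band 2 of 4, counted from the lowest, of the 21851 protein-coding promoters in the RefSeq table. Nppb, listed in 4 libraries, thus had slightly less CpG than Nppa, listed in 1. Corin (0.579), Npr3 (0.656) and Npr1 (0.680) lay in band 3 and Nppc (0.869, with 30 CpG) in band 4. A promoter of Npr2 was not analysed here.

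Across all promoters, the median ratio was 0.277 for the 7238 with no matched entry, 0.605, 0.521 and 0.519 for genes in 1, 2 and 3 libraries, and 0.705 for the 9387 in all 4. It was thus lowest with no entry and highest in all 4 libraries, without a steady order between them. The share of promoters whose gene was in all 4 libraries was 22.2% in band 1, 34.5% in band 2, 52.9% in band 3 and 62.2% in band 4. Genes with no matched entry include genes renamed since the lists were made, so these shares are descriptions of the matched names. A symbol with several promoters was counted once for each of them, always with the same listing, so these promoters are not independent. The ratio of Nppb lay under the lower quartile (0.401) of the promoters of genes in all 4 libraries. The ratio of Nppa lay under the median (0.605) of the promoters of genes in 1.

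**Figure D3:**
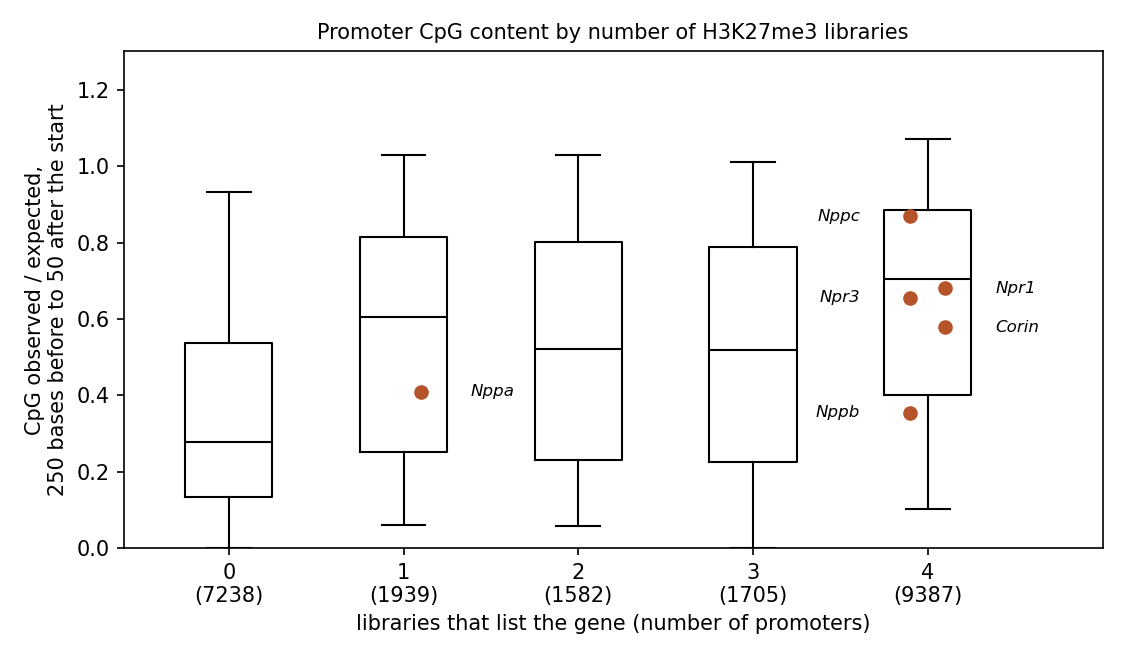
CpG observed over expected in promoter windows (vertical axis) by the number of libraries that list the gene (horizontal axis, number of promoters in brackets). Boxes span the quartiles with the median as a line, whiskers span percentiles 5 to 95, and points are the 6 genes with a promoter sequence. Nppa (0.410) and Nppb (0.355) lie close together in height but apart in the number of libraries.

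Short motifs of cardiac regulators were searched on both strands of the same windows. The motifs were GATAA, the core bound by GATA factors, CATTCC, the M-CAT element bound by TEAD factors, TATAAA, the TATA box, TNAAGTG, bound by Nkx2-5, TGACGTCA, the cyclic AMP response element, the CArG box of serum response factor, and the MEF2 site. GATAA occurred in the Nppa and Nppb windows and in none of the other 4 members' windows, and 23.9% of all promoters hold it. With so few windows, this occurrence cannot be told apart from that share. The matches are printed with their flanks, with the motif in capitals, because Gata4 and Gata6, which encode factors of this kind, were listed in all 4 libraries.
Nppa: tcgctggactGATAActttaaaagg
Nppb, match a: gaatgtgtctGATAAatcagagata
Nppb, match b: ataaatcagaGATAAccccacccct
Nppb, match c: ccagccccagGATAAaaggcagagg
The Nppa match starts 131 bases before the start of the gene, and the Nppb matches start 120, 109 and 57 bases before it. Matches a and b of Nppb lie close enough to share flanking bases. CATTCC matched once, on the minus strand of the Nppb window (tcagcaggcaGGAATGtgtctgataa, with its complement in capitals), just ahead of match a, and 12.7% of promoters hold it. TATAAA matched in the windows of Nppa (gctggggggcTATAAAaacgggagac), Nppb and Nppc (caggttggatTATAAAggctccagcc), and 13.0% of promoters hold it. The Nppa and Nppc matches start 39 and 48 bases before the start, whereas the Nppb match is on the minus strand at 208 bases. TNAAGTG, TGACGTCA, the CArG box and the MEF2 site had no match in the windows of the 6 genes, and 10.6%, 2.10%, 1.61% and 0.453% of promoters hold them. The Nppa window opens with aagtg, the closing letters of TNAAGTG, and a match that crosses the window edge would be missed. Variants that differ from a motif by a single letter were not counted either, so these elements are not shown to be absent from the promoters. A match is a run of letters and not a site shown to be bound, and a window without a match says nothing about the factor.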

How the data were processed

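H3K27me3 libraries of neonatal rat cardiomyocytes, 2 from α-KG-treated and 2 from control cells, were compared. Groups and replicate numbers come from the labels, and the 2 input samples, labelled IgG, were not used here. Per the files, the authors deposited 1 list per library, which pairs the Ensembl ID of each gene that has a peak with its symbol and domain names and holds no numeric value. CASAVA, BWA, MACS2 and build rn6 are named in the submitters' processing notes, with no role and no version. The sources used here do not give input use, peak assignment or depth.

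Members were matched by symbol, ignoring case, and entries, not symbols, were counted. The members, the gene lists and the motifs were chosen with earlier results of these data known. The rule for names covers every member, every listed gene of the fixed lists that was lost or gained, and up to 4 examples in list order. Further examples were chosen for their roles, and genes listed in 1 to 3 libraries, in the domain families and beyond the nearest neighbours were named after their values were seen. Single values were compared by exact two-sided permutation tests, and with 2 libraries a group no test can pass 0.05. Counts over the members were not tested. Some neighbouring genes are not reported here. RefSeq tables of assembly GRCr8 gave names, gene order and promoter sequences, with older symbols used where they name no other gene. Computation used Python 3.11.15, numpy 2.4.6, scipy 1.17.1 and matplotlib 3.10.9. The calls of loss and gain were checked on simulated lists in which these patterns had been placed, which does not check the matching or neighbour steps. Alternatives were a replicate block, 1 library left out at a time, other matching, other denominators, a shorter promoter window and fewer neighbours.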

Additional observations from a re-analysis of the deposited data

How the results depend on the processing

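The share of libraries listing Nppa, α-KG minus control, was -0.5 and ranged from -1 to 0 without 1 library. It was 0 without control 2, the only library that lists Nppa. The difference in members listed per library moved in the same way, from -1 to 0. The other 6 members kept a difference of 0 in every setting. Without control 1, Nppa alone met the pattern of loss, so members lost ranged from 0 to 1, and members gained stayed at 0. The background changed by construction, since fewer libraries then had to share a pattern: 904 to 1369 genes (5.24% to 8.55%) were lost and 1109 to 2290 (6.53% to 11.9%) gained without 1 library, and leaving out any of the 4 moved both counts by over 1.5 times. The difference in list length stayed positive, from 208.5 to 1405.5 genes. Genes in every library used ranged from 38 to 39 for the peptide and cyclic GMP lists and from 66.0% to 71.6% for all genes.

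The groups share replicate numbers, but the labels do not say that a number marks a shared culture or day. The deviations of replicate 1 from the group means correlated across genes with r = 0.0478 between α-KG and control. With the replicate block the differences were again -0.5 for Nppa, -0.5 for members per library and 807 for list length. Matching by older symbols left the difference of every member unchanged. With the shorter promoter window, the median CpG ratio of the members was 0.573 instead of 0.617. With 2 neighbours on each side, 41.2% of the neighbours with an entry were in all 4 libraries instead of 53.3%. The smaller share lay further below the 62.8% of all genes. Without depth, peak height or position, a change in the strength of the mark at a listed gene cannot be seen.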
